A study of Mus musculus with 6 samples.

Results

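The Magea genes are the mouse members of the MAGE-A cancer-testis family, and 7 of the 12626 genes measured here carried a Magea name followed by a number. They were Magea2, Magea3, Magea4, Magea5, Magea6, Magea8 and Magea10. RNA was sequenced from J1 WT mouse embryonic stem (ES) cells, a male line, on 3 days of a change of culture medium. Each day had 2 biological replicates, which makes 6 samples. At D0 the cells were in serum with LIF, and at D6 and D13 they had spent that many days in serum-free 2i+vitC, which held LIF, 3 µM of the Gsk3 inhibitor CT-99021, 1 µM of the MEK inhibitor PD0325901 and 100 µg/mL of vitamin C. Every sample came from the same line, grew without feeders on gelatin, and had no targeted mutation. The base medium, the inhibitors and the vitamin changed together, so their parts cannot be told apart. The study used the conversion as a model in which ES cells lose DNA methylation, and the comparison of days asked which transcripts change with it. The family was chosen by its log2 CPM on the 3 days, which was low at D0 and high at D6 and D13. Their levels and differences between days are therefore a description, with no test.

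MAGE-A genes lie on the X chromosome and are normally transcribed in male germ cells, with little or no transcript in most somatic tissues. In many tumours they become active again, which gave the cancer-testis class its name. Their promoters are a textbook case of silencing by CpG methylation, and drugs that block DNA methylation switch them on in cultured cells. The proteins share a MAGE homology domain through which they bind RING-type ubiquitin ligases such as TRIM28.

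The RefSeq annotation of GRCm38.p6, the assembly the authors call mm10, lists 10 Magea entries, all on chromosome X. Of these, 8 are protein-coding and 2, Magea7-ps and Magea9-ps, are pseudogenes. Magea1 (X:155088519-155089790) and the pseudogenes were not analysed here. The 7 measured genes form 2 blocks. Magea4 (X:72221015-72222964, plus strand) and Magea10 (X:72381870-72386858, minus strand) lie within 165.844 kb. The other 5 lie within 139.257 kb and are all on the minus strand. They are Magea6 (X:154923895-154936074), Magea3 (X:154948180-154959031), Magea8 (X:154985775-154995850), Magea2 (X:155027201-155033313) and Magea5 (X:155053061-155063151). In the annotated transcripts the protein of each of the 7 genes is encoded by 1 exon.

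The members also differ in sequence, but not simply by block. The coding sequences of Magea2, Magea3, Magea5, Magea6 and Magea8 are between 94.8% and 97.9% identical to each other. Magea4 is 80.4% to 83.0% identical to these 5, and Magea10 is 54.8% to 57.3% identical to any other member. This bears on the counts, because reads of 100 bases cannot always be placed. The share of 100-base stretches of the transcripts that also occur in another gene's transcript was 44.1% for Magea2, 25.4% for Magea5, 22.6% for Magea3, 21.4% for Magea8 and 16.2% for Magea6. All of the partners were other members of the block of 5 or Magea1. For Magea4 and Magea10 that share was 0%. How the counting treated reads with several mapping sites is not given in the sources used here. How reads are split among the 5 similar genes is therefore uncertain. For Magea4 and Magea10 no exact shared stretch was found. Stretches that match with mismatches, which the authors' mapping allowed, were not searched.

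The sequences that precede these genes are shown because CpG dinucleotides are the sites that DNA methylation acts on. RefSeq windows reach from 250 bases before to 50 bases after an annotated start, and all 7 genes had one. For Magea8, Magea10 and Magea2 the window lies at the outer end of the annotated gene, or within 21 bases of it. For Magea5, Magea4, Magea3 and Magea6 the annotated gene begins 1598, 1002, 9462 and 9959 bases further upstream, so these 4 windows may miss the start in use. The 4 windows printed here are the 3 at an outer end and, for contrast, that of Magea5. They read 5′ to 3′ on the strand of the gene (minus in all 4) in GRCm38.p6, and capitals mark each CpG.
Magea8 (X:154995801-154996100): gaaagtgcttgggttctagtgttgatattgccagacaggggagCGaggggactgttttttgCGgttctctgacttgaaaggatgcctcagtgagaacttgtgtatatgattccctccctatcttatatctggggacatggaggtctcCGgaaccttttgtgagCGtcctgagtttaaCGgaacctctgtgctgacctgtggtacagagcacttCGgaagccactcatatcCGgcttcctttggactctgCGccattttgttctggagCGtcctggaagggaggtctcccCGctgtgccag
Magea2 (X:155033243-155033542): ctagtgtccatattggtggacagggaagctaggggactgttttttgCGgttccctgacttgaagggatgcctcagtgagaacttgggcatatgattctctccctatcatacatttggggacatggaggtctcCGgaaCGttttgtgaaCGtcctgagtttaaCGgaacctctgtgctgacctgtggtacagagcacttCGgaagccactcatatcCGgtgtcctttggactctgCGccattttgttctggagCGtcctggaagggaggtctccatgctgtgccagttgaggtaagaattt
Magea10 (X:72386809-72387108): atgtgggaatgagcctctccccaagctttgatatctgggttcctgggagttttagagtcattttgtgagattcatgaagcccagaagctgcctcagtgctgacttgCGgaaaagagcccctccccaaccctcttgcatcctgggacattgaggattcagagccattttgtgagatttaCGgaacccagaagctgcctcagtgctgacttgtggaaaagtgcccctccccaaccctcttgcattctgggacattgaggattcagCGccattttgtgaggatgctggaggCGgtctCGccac
Magea5 (X:155061504-155061803): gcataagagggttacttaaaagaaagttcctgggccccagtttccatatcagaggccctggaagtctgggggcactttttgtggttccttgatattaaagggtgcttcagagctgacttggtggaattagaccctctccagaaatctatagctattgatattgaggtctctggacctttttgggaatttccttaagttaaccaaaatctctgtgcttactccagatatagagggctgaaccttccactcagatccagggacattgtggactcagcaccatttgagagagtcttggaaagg

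Magea8 has 10 CpG and Magea2 has 9, against a median of 7 over the 32851 windows of all genes. Magea10 has 5, Magea4 has 2, Magea6 has 1, and Magea3 and Magea5 have 0. The windows of Magea8 and Magea2 are 83.8% identical to each other, whereas Magea8 and Magea5 share 54.6% and Magea8 and Magea10 share 56.0%. The letters CCGGAA, the core of ETS family sites with a CpG inside, occur once in Magea8 and once in Magea2, and in 14.9% of all windows. GCCATNTT, the core of YY1 sites, occurs in Magea8 and Magea2, at 2 places in Magea10, and in 6.05% of all windows. Both strands were searched, and no ETS match overlapped a YY1 match. CACGTG (7.15% of all windows), TGACGTCA (1.79%) and TTCCCGCC (2.19%) occur in none of the 7 windows. Such a match is a stretch of letters and was not tested as a binding site.

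Depth was high and even. Each sample held between 73230745 and 83688345 counted reads on genes. A level of 3 reads, taken as the limit of detection, was worth 0.034 to 0.042 CPM, reads scaled to a fixed library size. At D0 the family's levels were low. Its 7 genes together had 13 reads in replicate 1 and 40 in replicate 2, a summed level of 0.165 and 0.458 CPM. The D6 samples had sums of 64.5 and 74.0 CPM (5088 and 6297 reads). Those of D13 reached 182 and 133 CPM (13010 and 10002 reads). Both D6 samples were above both D0 samples and below both D13 samples.

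The members entered the processed files only through the converted cells. Every gene in the files has at least 2 samples above 1 CPM, and each Magea gene had 0 such samples at D0, 2 at D6 and 2 at D13. A Magea gene without transcripts at D6 and D13 would not be listed, so the number of members that differ is set by this filter.

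**Figure D1:**
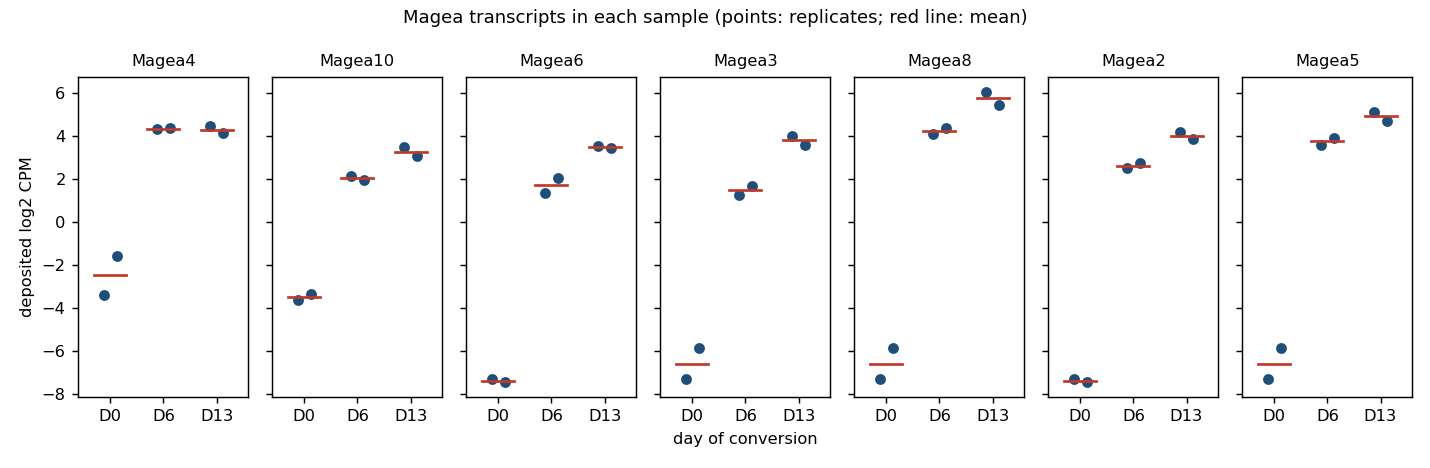
Deposited log2 CPM (vertical axis) of the 7 Magea genes on each day (horizontal axis), in chromosomal order. Each point is 1 of 2 replicates and the red line is their mean. A gene without a read sits at -7.30 in D0 replicate 1 and -7.45 in D0 replicate 2, and each D6 and D13 point is above 1.

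Magea4 and Magea10 were the members with more than a single read at D0. Magea4 had 7 and 29 reads at D0 in replicates 1 and 2, a log2 CPM of -3.39 and -1.56, which is the widest gap between replicates in the family. It then stood at 4.34 and 4.36 at D6 and at 4.49 and 4.13 at D13. The D6 and D13 ranges of Magea4 overlapped, and both lay far above D0. Magea10, the member least like the rest in coding sequence, had 6 and 8 reads at D0 (log2 CPM -3.60 and -3.36), 2.16 and 1.97 at D6, and 3.49 and 3.08 at D13. For this gene the 3 days did not overlap.

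The 5 similar genes of the other block had 0 or 1 read each in a D0 sample. Over both D0 samples Magea2 and Magea6 had 0 reads, and Magea3, Magea5 and Magea8 had 1 read each, in every case in replicate 2. Of the 12626 genes, 18 had at most 1 read at D0, and 5 of these 18 were Magea genes. Only genes with at least 2 samples above 1 CPM are listed. Each of the 18 was therefore above 1 CPM on a later day. Genes silent on every day are absent, so nothing is read from this count.

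Magea8 reached a log2 CPM of 4.08 and 4.36 at D6 and of 6.07 and 5.45 at D13. Magea5 stood at 3.61 and 3.90 at D6 and at 5.14 and 4.71 at D13. For Magea2 the values were 2.50 and 2.75 at D6, then 4.20 and 3.86 at D13. All 3 genes had their D13 samples above their D6 samples.

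Magea3 and Magea6 were lower at D6. Magea3 had a log2 CPM of 1.26 and 1.70 at D6 and of 3.99 and 3.61 at D13. Magea6 had 1.38 and 2.04 at D6 and 3.54 and 3.44 at D13. Neither gene's days overlapped.

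Levels of different genes are compared here per kb of exon. At D6 the mean of 2 replicates, in CPM per kb (SD, n = 2), was 21.5 ± 0.16 for Magea4, 11.4 ± 1.56 for Magea8, 8.25 ± 1.18 for Magea5, 3.58 ± 0.44 for Magea2, 2.92 ± 0.63 for Magea3, 2.76 ± 0.88 for Magea6 and 2.31 ± 0.21 for Magea10. The replicate ranges of Magea8, Magea5 and Magea2 were separate, and those of neighbours from Magea2 down to Magea10 overlapped. At D13 Magea8 led with 33.7 ± 10.1, followed by Magea4 (21.0 ± 3.73), Magea5 (18.6 ± 3.87), Magea3 (14.6 ± 2.74), Magea2 (9.51 ± 1.61), Magea6 (9.28 ± 0.44) and Magea10 (5.40 ± 1.09). Here the ranges of Magea2 and Magea6 overlapped, Magea8 lay above Magea5, and Magea6 lay above Magea10. The GENCODE models of Magea3 (963 bases) and Magea4 (948 bases) hold the coding exon alone. Their level per kb may therefore be overstated, and their place in either order is not settled. Reads were counted on RefSeq, whose exons may differ from these lengths for the other members too. Before division by length, the D6 samples of Magea4 (20.3 and 20.5 CPM) lay within the range of Magea8 (16.9 and 20.6 CPM). At D6 Magea3 had a mean of 2.81 CPM and Magea10 one of 4.20, and at D13 Magea3 had 14.1 CPM and Magea2 16.5, the reverse of their order per kb in both cases.

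From D0 to D6 the fitted log2 fold change (limma, one fit of the 6 samples) was 10.80 (SE 0.52) for Magea8, 10.34 (SE 0.53) for Magea5, 9.9998 (SE 0.46) for Magea2, 9.08 (SE 0.51) for Magea6 and 8.06 (SE 0.59) for Magea3. It was 6.83 (SE 0.54) for Magea4 and 5.55 (SE 0.41) for Magea10. The family median was 9.08, against -0.01 over all genes. Among the 12626 genes ordered by this change, Magea8 was at place 1, Magea5 at 2, Magea2 at 3, Magea6 at 5, Magea3 at 14, Magea4 at 47 and Magea10 at 106.

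These changes depend on how a value of 0 or 1 read is written on the log scale. The deposited values add 0.5 read to each count. On log2(CPM + 1) the D0 to D6 change was 4.28 for Magea8 (place 24), 4.14 for Magea4 (place 34), 3.84 for Magea5 (place 50) and 1.91 for Magea3 (place 466), and the family median was 2.83. Counted against the limit of 3 reads per D0 sample, Magea2 was at least 171-fold higher at D6 and at least 454-fold higher at D13. For Magea6 the bounds were at least 92.3-fold and at least 311-fold. For the 3 genes with 1 read the ratio itself is loose. Magea8 was 3126-fold higher at D6, with an exact 95% counting interval from 561 to 123491. Magea10 and Magea4 had enough reads for narrower intervals, 49.7-fold (29.4 to 91.4) and 94.1-fold (67.9 to 135) at D6. With Magea2 and Magea6 at their bounds and every other member at its fitted value, the family median log2 fold change was 7.42 at D6 and 8.83 at D13. Magea3, Magea5 and Magea8 were also under the limit of 3 reads at D0 but were not set to a bound, so this median is not itself a bound. Intervals and bounds cover counting error only.

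The D0 replicates move these values too. Without D0 replicate 1 the D0 to D6 log2 fold change of Magea4 was 5.92, and without D0 replicate 2 it was 7.74. In the same order the values were 7.34 and 8.78 for Magea3, 9.62 and 11.06 for Magea5, and 10.09 and 11.52 for Magea8. These D0 levels rest on 7 and 29 reads for Magea4 and on 0 and 1 read for each of the others.

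**Figure D2:**
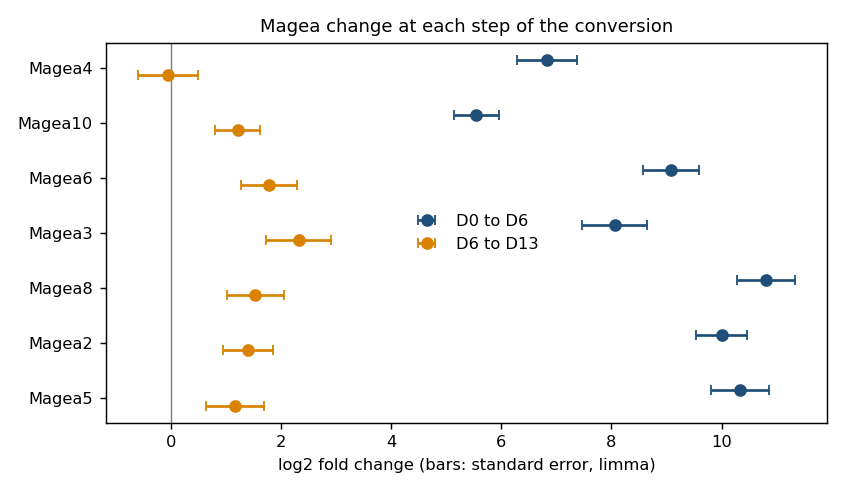
Fitted log2 fold change (horizontal axis) of each Magea gene from D0 to D6 (blue) and from D6 to D13 (orange), with bars of 1 standard error from limma on 6 samples. The first step spans 5.55 to 10.80 and the second -0.04 to 2.32, with Magea4 at the lower end of the second.

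The 7 listed members were past the study's call rule from D0 to D6, more than 4-fold with an adjusted p under 0.05 (limma, Benjamini-Hochberg over genes and transposon families), where 5.91% of all genes were called higher and 3.90% lower. From D0 to D13 the 7 were again past it, with 7.45% of all genes called higher and 6.01% lower. As the members were chosen by these contrasts and passed the file's filter through D6 and D13, nothing is read from these counts. D0 to D13 log2 fold changes ran from 6.76 (SE 0.41) for Magea10 and 6.79 (SE 0.54) for Magea4 to 12.34 (SE 0.52) for Magea8, with a median of 10.87. Without D0 replicate 1 and without D0 replicate 2, in that order, they were 5.87 and 7.70 for Magea4, 9.66 and 11.10 for Magea3, 10.79 and 12.22 for Magea5, and 11.62 and 13.06 for Magea8.

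The second step was smaller and differed among members. From D6 to D13 the log2 fold change was 2.32 (SE 0.59) for Magea3, 1.79 (SE 0.51) for Magea6, 1.54 (SE 0.52) for Magea8, 1.40 (SE 0.46) for Magea2, 1.21 (SE 0.41) for Magea10 and 1.17 (SE 0.53) for Magea5. For Magea4 it was -0.04 (SE 0.54). At D6 the CPM level of Magea4 was already 102% of its D13 level, whereas the other 6 stood between 20.0% (Magea3) and 44.3% (Magea5). Magea4 made up 31.4% and 27.7% of the family's reads in the D6 samples and 12.3% and 13.1% in the D13 samples.

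No member was called from D6 to D13 (limma), where 0.388% of all genes were called higher and 0.697% lower. As the members were chosen by their levels on these days, this count is not read as a test, nor as a lack of change. Magea3, the one member past 4-fold at this step, was called in 6 of the other settings described in the closing section. Both D13 samples lay above both D6 samples in 6 of 7 members, while 30.0% of all genes had this pattern. For D0 and D6 the same held in 7 of 7 (34.2% of all genes), and for D0 and D13 in 7 of 7 (34.0%).

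The members also shifted together between replicates. At D6, replicate 2 was higher than replicate 1 in 6 of 7 members, with a median difference of 0.28 on the log2 scale. At D13, replicate 1 was higher in 7 of 7, and the median of replicate 2 minus replicate 1 was -0.38. Over all genes, replicate 2 was higher in 53.1% at D6 and replicate 1 in 50.6% at D13. The 5 similar genes may share reads, so the 7 are not independent here.

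The closest profiles among other genes were sought by the root mean square difference, over the 6 samples, from the family's median course after each gene was set to 0 at its D0 mean. Xlr5a was closest (0.18 log2 units), followed by Xlr5b (0.76), Rhox2g (0.92), 1700013H16Rik (0.99) and Xlr5c (1.11). Xlr5a had 1 and 3 reads in serum, 1088 and 1360 by D6, and 3823 and 3349 by D13. Of the members themselves, Magea6 lay 0.46 from the median course, Magea3 0.66, Magea2 0.78, Magea5 0.83 and Magea8 1.32. Magea4 (2.70) and Magea10 (3.15) were further from it than the 5 genes just named. The median course stood at -0.72 and 0.72 in the D0 samples, which are the values of genes with 0 and 1 read. These distances therefore depend on counts near the floor.

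Xlr5a, Xlr5b and Xlr5c are also neighbours of Magea4 and Magea10. Within 1 Mb of these 2 genes, 22 of 52 other annotated genes were matched by name to a measured gene. Neighbours with a capital G in the symbol could not be matched even if measured. Those without at least 2 samples above 1 CPM are not listed either. Of the 22, 12 were higher from D0 to D6, with none lower (limma, adjusted p from 8.1e-06 to 0.0052). Over all genes 5.91% were called higher and 3.90% lower. Of the 12 neighbours called, 9 were Xlr genes, X-linked lymphocyte-regulated genes that are themselves near-identical copies with uncertain counts. Each of these 9 had fewer than 2 D0 samples above 1 CPM, so it is listed only through the later days. Nothing is therefore read from the count of 12. The 9 Xlr genes had log2 fold changes from 5.05 (Xlr3a) to 9.49 (Xlr5b). The other 3 were Mtm1, a phosphoinositide phosphatase (2.44, SE 0.29), and Pnma5 (2.26, SE 0.29) and Pnma3 (2.01, SE 0.38), of the paraneoplastic antigen family. From D0 to D13, 10 of the 22 were higher and none lower, where 7.45% of all genes were called higher and 6.01% lower. Mtm1 (1.62, SE 0.29) and Pnma3 (1.83, SE 0.38) no longer reached 4-fold. The D0 to D13 call of Pnma5 did not hold without D0 replicate 1 (1.95), while Pnma3 was called without D0 replicate 2 (2.03) or D13 replicate 2 (2.20). The calls of Pnma3 and Pnma5 from D0 to D6 did not hold without D0 replicate 1, where 10 neighbours were called, and the call of Pnma3 did not hold without D6 replicate 2 or on log2(CPM + 1) either. Xlr3a stood at 4.44 without D0 replicate 1 and at 5.66 without D0 replicate 2.

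Around the other block, 3 of 41 annotated neighbours were matched by name, with the same limits. Sat1, which acetylates polyamines, had a log2 fold change of 1.80 (SE 0.25) from D0 to D6, under 4-fold, and was higher from D0 to D13 by 2.46 (SE 0.25, limma adjusted p = 0.00014). Acot9 and Prdx4 were not called in any comparison. On the X chromosome as a whole, 41 of 422 other genes matched by name (9.72%) were called higher from D0 to D6 and 22 (5.21%) lower. The Xlr genes near Magea4 and Magea10 are 9 of the 41. The excess over the whole table was not tested.

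**Figure D3:**
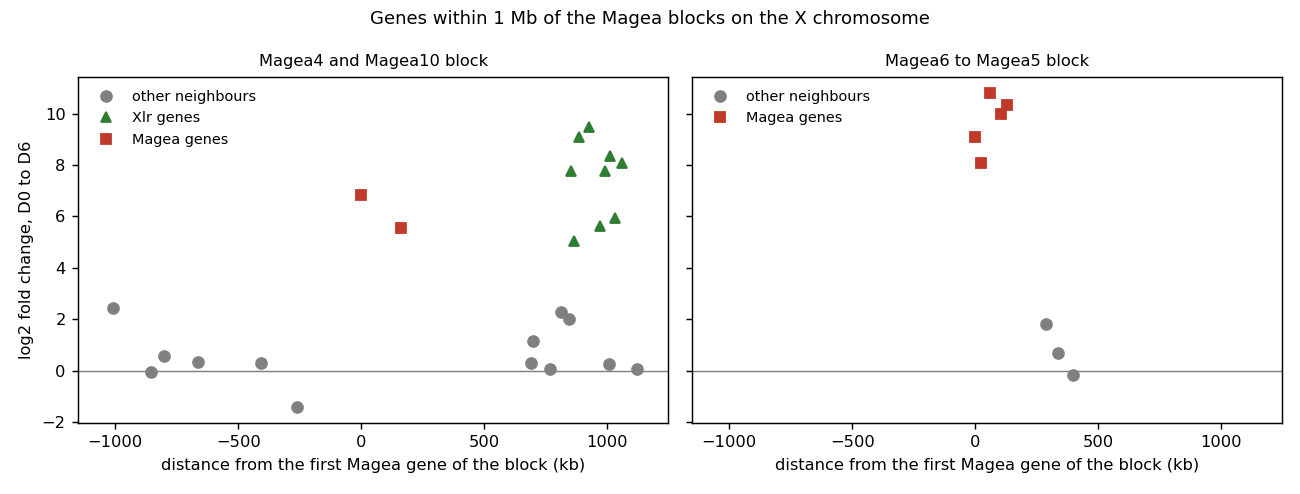
Fitted log2 fold change from D0 to D6 (vertical axis) of genes within 1 Mb of each Magea block, against distance in kb from the first Magea gene of the block (horizontal axis). Red squares are Magea genes, green triangles Xlr genes and grey circles other neighbours. The 9 Xlr genes sit between 5.05 and 9.49, and the 3 matched neighbours in the right panel are below 2.

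The other MAGE genes did not follow the Magea genes. Mageb16, of the type I group that also holds Magea, is X-linked and was the sole Mageb gene measured. It already stood at a log2 CPM of 4.41 and 3.97 at D0, then at 4.63 and 4.62 at D6 and 4.58 and 4.77 at D13. Its D0 to D13 log2 fold change was 0.49 (SE 0.25, limma adjusted p = 0.15). Type II MAGE genes are broadly expressed, and 8 of the 11 symbols searched were measured (Ndnl2 and Nsmce3 are names of 1 gene). None of the 8 was called higher, and 3 of them had an unadjusted p under 0.05 from D0 to D6 (limma), in either direction. Tro (trophinin) was lower, with a log2 fold change of -2.69 at D6 (SE 0.29, limma adjusted p = 0.00031) and of -3.12 at D13 (SE 0.29, limma adjusted p = 0.00011). The remaining 7, Maged1, Maged2, Magee1, Magee2, Mageh1, Ndn (necdin) and Ndnl2 (a subunit of the SMC5/6 complex), were not called in any comparison, and their D0 to D13 changes ran from -0.66 for Ndn to 0.76 for Magee2.

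Genes for proteins that MAGE proteins bind were measured in 7 of 7 cases (Trim28, Trim27, Nsmce1, Pja1, Lnx1, Huwe1 and Usp7), and none was called in any comparison. At an unadjusted p under 0.05 (limma) there were 2 for D0 to D6, 1 for D6 to D13 and 4 for D0 to D13. Trim28, the ligase bound by several MAGE-A proteins and a corepressor of transposons, differed by -0.53 (SE 0.28, limma adjusted p = 0.16) from D0 to D13. Nsmce1, a ligase of the SMC5/6 complex, had the widest change at 1.68 (SE 0.27, limma adjusted p = 0.0015), which is under 4-fold.

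Of 5 genes of the DNA methylation machinery, 3 were lower from D0 to D6 and from D0 to D13, and none was higher. These 3 were the genes of de novo methylation. Dnmt3l, a cofactor without catalytic activity, fell by 4.87 on the log2 scale (SE 0.39, limma adjusted p = 8.3e-05) to D6 and by 6.32 (SE 0.39, limma adjusted p = 2e-05) to D13. It fell by 4.28 to D6 without D6 replicate 1 and by 5.47 without D6 replicate 2. Dnmt3b fell by 3.37 to D6 (SE 0.31, limma adjusted p = 0.00016) and Dnmt3a by 2.41 (SE 0.25, limma adjusted p = 0.00026). The maintenance methyltransferase Dnmt1 (0.18, SE 0.23, limma adjusted p = 0.62) and its partner Uhrf1 (1.11, SE 0.22, limma adjusted p = 0.006) did not pass 4-fold. Methylation was not measured in these samples, and the part of these transcripts in the Magea levels was not tested.

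The 3 TET genes encode enzymes that oxidise methylated cytosine, a step towards its removal. They had D0 to D13 changes from -1.92 to -1.09 and none was called, though all 3 had an unadjusted p under 0.05 (limma). Without D13 replicate 2, Tet3 was called lower at -2.33. Among repressors of germline genes, none of 8 genes of PRC1.6, a Polycomb complex that silences germline promoters, was called, with changes from -1.01 to 0.36 and 3 at an unadjusted p under 0.05. Among 7 genes of H3K9 methylation, Zfp644, a partner of the H3K9 dimethylase, was lower from D0 to D13 (-2.09, SE 0.37, limma adjusted p = 0.0024). That call did not hold without D0 replicate 2 (-1.87) or without D13 replicate 1 (-1.49). At an unadjusted p under 0.05 (limma), 5 of these 7 differed at D6 and 4 of 7 at D13, both against D0. Suv39h1 was among them at D6 (-1.32, SE 0.25, limma adjusted p = 0.0058) but not at D13 (-0.23, SE 0.25, limma adjusted p = 0.49).

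Outside the family, 16 germline genes were measured, and 7 of them were higher from D0 to D6, none lower. Over all genes 5.91% were called higher and 3.90% lower. From D0 to D13, 8 were higher and none lower, where 7.45% of all genes were called higher and 6.01% lower. The median D0 to D13 change of the 16 was 1.94. Asz1, Dpep3, Tuba3b and Tex101 were under 1 CPM in both D0 samples, so they are listed only through the later days. The list was also chosen with earlier results known, so nothing is read from these counts. Dazl, an RNA-binding protein of germ cells, stood at a log2 CPM of 2.83 and 2.64 in serum, 8.48 and 8.53 by D6, and 9.34 and 9.47 by D13. The other genes with the widest change from D0 to D13 were Dpep3, a testis dipeptidase (5.63, SE 0.53), Asz1, of the piRNA pathway (4.88, SE 0.38), and Tuba3a, a testis tubulin (4.40, SE 0.26), with limma adjusted p of 0.00011, 4.8e-05 and 1.6e-05. Tuba3a shares nearly all its sequence with Tuba3b, so its count is uncertain. Stk31, a germ cell kinase-like protein (2.08, SE 0.23, to D6), dropped under 4-fold without D0 replicate 1 (1.95) or D6 replicate 2 (1.92). Sycp1, Sycp3, Mael, Tex11, Ddx4, Brdt and Slc25a31 were not called in any comparison. From D6 to D13 one of the 16, Taf7l, an X-linked germ cell transcription factor, was higher (2.01, SE 0.35, limma adjusted p = 0.027), and 6 of the 16 had an unadjusted p under 0.05. That call did not hold without D6 replicate 1, D6 replicate 2 or D13 replicate 1.

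**Figure D4:**
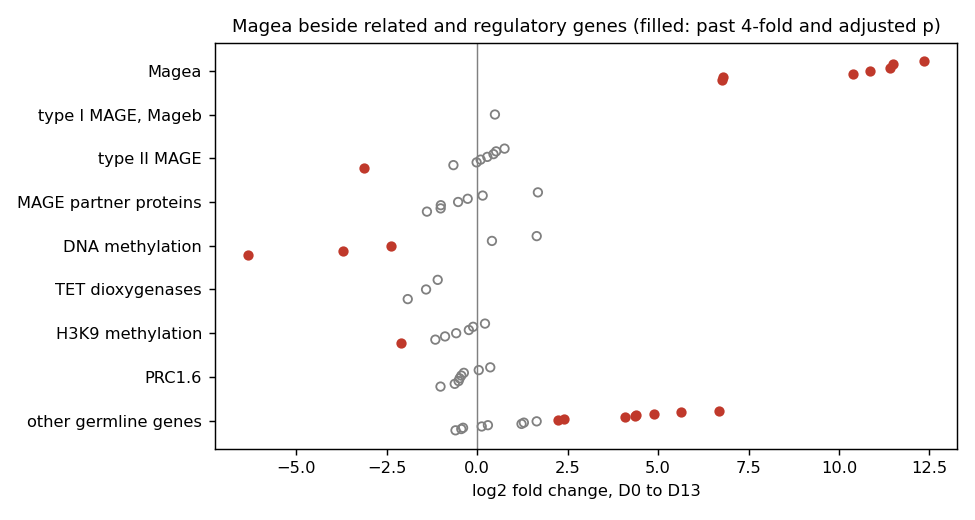
Fitted log2 fold change from D0 to D13 (horizontal axis) of each measured gene in the Magea family and in the related lists (vertical axis). Filled points passed the call rule and open points did not. The Magea genes lie between 6.76 and 12.34, and among the listed germline genes 8 are filled.

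The labelled cell type was checked against its markers. All 9 ES cell markers were measured, and their summed level was 3470 to 6363 CPM per sample. Within this list Utf1 was lower, by limma, at D6 (-2.10, SE 0.28) and D13 (-2.96, SE 0.28), and Nanog was higher at D6 (2.00, SE 0.22). The D6 calls did not hold without D6 replicate 1 for Utf1 (-1.80) or without D0 replicate 1 for Nanog (1.91). The summed germ cell markers were higher on both later days than at D0. Of 9 such markers 8 were measured (Sohlh1 was not). They summed to 131 and 196 CPM in serum, 1063 and 1033 by D6, and 1047 and 1261 by D13. From D0 to D6, 5 of the 8 were called higher (5.91% of all genes), and from D0 to D13, 4 of the 8 (7.45%). Prdm14, called higher in both comparisons, is listed by the study among its pluripotency factors. The counts are therefore not read as a germ cell signal. From D6 to D13 none of the 8 was called, 3 had an unadjusted p under 0.05 (limma), and the median change was -0.26, with Nanos3 at -1.24 (SE 0.47). The D6 call of Nanos3 did not hold without D0 replicate 2 (1.65) or D6 replicate 1 (1.96). Dazl and Kit made up most of this sum at D6 and D13, and Ddx4, a defining germ cell marker, went the other way from D0 to D6 (-1.74, SE 0.39, limma adjusted p = 0.012, under 4-fold). It was called lower without D0 replicate 2 (-2.33). Prdm1 was not called, at -1.17 (SE 0.44) from D0 to D6 and -1.35 (SE 0.44) from D0 to D13. Fibroblast markers, 3 of 6 measured, summed to 29.6 and 10.1 CPM at D0 and to 4.84 to 5.60 CPM at D6 and D13. Col1a1 had 1461 and 318 reads in the D0 samples. Within this list Col1a2 was lower from D0 to D13 (-3.86, SE 0.76, limma adjusted p = 0.0042), with 42 and 8 reads at D13, and none was higher. Trophoblast markers, 3 of 6 measured and without Cdx2, Elf5 and Hand1, summed to 14.8 and 9.65 CPM at D0, 5.34 and 8.10 by D6, and 15.9 and 13.4 by D13. Of these, Krt7 was higher from D6 to D13 (2.20, SE 0.37, limma adjusted p = 0.024), a call that did not hold without D6 replicate 1, D6 replicate 2 or D13 replicate 1, and Ascl2 was not called at that step (2.15, SE 0.50, limma adjusted p = 0.051). Primitive endoderm markers, 4 of 6 measured and without Sox7 and Foxa2, summed to 309 and 194 CPM at D0 and to 312 to 439 CPM on the later days, mostly from Sparc. Within this list Dab2 was lower from D0 to D6 (-4.32, SE 0.40, limma adjusted p = 0.00015). It was also lower from D0 to D13 (-4.66, SE 0.40, limma adjusted p = 7e-05), and the other 3 were not called. The part of other cell types in the Magea result was not tested. In bulk RNA, more cells with Magea transcripts and more transcripts per cell cannot be told apart.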

How the data were processed

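RNA-seq of 6 samples was analysed, grouped by day from the labels. The authors mapped paired 100-base reads of stranded libraries onto mm10 with TopHat2 2.0.6 and RefSeq, and counted genes with HTSeq 0.6.1. They counted transposon families separately (Bowtie 1.0.0), applied TMM to both tables and deposited voom log2 CPM, without its precision weights. Each deposited log2 value of a gene gave back a whole read count after an offset of 0.5 (within 0.01, for 100% of values).

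The 12626 genes and 302 families were fitted together with limma 3.58.1 (R 4.3.3; one mean per day, moderated with a trend, no block), after tests on simulated data. Benjamini-Hochberg adjustment ran over all 12928. A gene was called at more than 4-fold with an adjusted p under 0.05. An SE rests on 2 replicates per day, and p-values on the spread among them. Members and gene lists were chosen with earlier results of these data known.

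Genes named are the Magea, Mageb and type II MAGE genes, the 5 closest profiles, called neighbours, and up to 4 called genes per list. Other genes named were chosen after their values were seen. Exon lengths come from GENCODE M21 and promoter windows from RefSeq (GRCm38.p6). Gene names in the files lack capital G. Of 12566 names, 11353 matched RefSeq, and unmatched genes are missing from the X chromosome and neighbour counts. Motifs were chosen with the windows in view. Python 3.11.15, Biopython 1.88 and scipy 1.17.1 were used.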

Additional observations from a re-analysis of the deposited data

How the results depend on the processing

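The counts of Magea genes called from D0 to D6 and from D0 to D13 were 7 under every alternative run, except that on log2(CPM + 1) the D0 to D6 count was 6, without Magea3. From D6 to D13 the count of 0 became 1, Magea3 each time, with only the 2 days compared, limma without a trend, voom precision weights, or without D0 replicate 1 or D0 replicate 2 (0 to 1 over the samples left out in turn). The cause was not tested. With the replicate number as a block it was also 1, and no other count of Magea or list genes called moved. The replicate numbers were not taken to pair the samples: replicate differences over genes correlated at -0.13 (D0 with D6), 0.33 (D6 with D13) and 0.14 (D0 with D13). On log2(CPM + 1) the median Magea log2 fold change was 2.83 at D6 and 4.10 at D13 against D0, since the added CPM outweighs the D0 levels.

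Of the 55 listed genes, 11 were called from D0 to D6 (10 to 12 with 1 sample left out) and 17 at a 2-fold minimum. From D0 to D13, 13 were called (12 to 14) and 25 at a 2-fold minimum. From D6 to D13 the 1 call (0 to 1) became 0 on log2(CPM + 1) and at an adjusted p under 0.01. No result reversed. With 2 replicates a day, an SD rests on 2 values.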
